A study of Mus musculus with 60 samples.

Results

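Fatty acid oxidation and ketogenesis were followed through 33 genes. They were given by name from knowledge of the pathway and of the target genes of the nuclear receptor PPARA. Earlier results of these data were known when they were chosen. All 33 were found among the 19355 gene symbols measured in cultured cells and among the 17473 measured in liver, and each passed a filter that asked for 1 FPKM or more in 3 samples of a table. They were grouped by role into activation and carnitine shuttle, acyl-CoA dehydrogenases, later steps of mitochondrial beta-oxidation, auxiliary enzymes for unsaturated chains, electron transfer, peroxisomal enzymes, ketone bodies, acyl-CoA thioesterases, and PPARA-responsive regulators with a lipid droplet coat. Ketone bodies are represented by a single gene, Bdh1.

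Hepatocytes take up fatty acids, join them to coenzyme A, pass long chains into mitochondria through the carnitine shuttle, and shorten them by rounds of dehydrogenation, hydration, oxidation and thiolysis. Very long chains are shortened first in peroxisomes. In fasting, much of the acetyl-CoA formed in the liver is turned into ketone bodies that other organs burn, and PPARA, which binds fatty acids, switches on many of the genes involved.

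RNA was sequenced in bulk from liver and from cultured liver cells of mice, all labelled as genotype WT and strain C57BL/6, with 3 samples in each group. The first set of 33 samples held freshly isolated hepatocytes, hepatocytes kept for 3 or 14 days in a medium with IL6, EGF, HGF and dexamethasone without passage (IL6-iHPCs-D3 and IL6-iHPCs-D14, P0), and passaged induced hepatic progenitor cells (IL6-iHPCs) of 4 lines. These were P10 and P35 of mouse-1, P10 of mouse-2, and P20 of clone-1. It also held mature hepatocyte-like cells (IL6-iMHs) made from each of these lines by 7 days in a maturation medium with more dexamethasone and with OSM but without IL6, EGF and HGF. Of the 4 lines, 2 came from the same mouse at different passages and 1 grew from a single hepatocyte. The study describes such clones as made from mice that carry Albumin-Cre and a tdTomato reporter, whereas clone-1 is labelled WT. The study describes the 3 samples of a cell group as technical repeats, so their spread is that of the measurement and not of mice. Wherever values are averaged over the 4 lines, the SE and p-value also rest on that spread. They do not measure the differences between lines. The second set held 18 liver samples, from normal liver and from liver 6 h, 24 h, 3 days, 7 days and 14 days after 2/3 partial hepatectomy (PHX), an operation after which the remaining liver regrows. The third set held 9 samples of freshly isolated primary hepatocytes and of hepatocytes kept for 7 days in the same medium with IL6 (IL6-iHPCs-D7) or without it (HCM-Hepa-D7). Nothing in the labels says whether the 3 liver samples of a time point are 3 mice, so p-values measure the spread between these samples, which may be technical.

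Each cell sample held between 49299093 and 88877760 reads on genes and each liver sample between 52073585 and 79266296, as recovered from the values up to a common factor. Summed FPKM of 8 hepatocyte markers ran from 57646 to 64349 in hepatocytes, from 986 to 1159 in IL6-iHPCs-D3, from 4016 to 4900 in IL6-iHPCs-D14, from 1740 to 9359 in passaged cells and from 51973 to 68019 after maturation. The sums were led by Alb, and without it they reached 10989 in hepatocytes and between 1594 and 6284 in the 4 groups of IL6-iMHs. Summed biliary and progenitor markers, 19.6 to 22.8 in hepatocytes, reached 11034 in the passaged lines and 1436 in IL6-iMHs, led by Spp1 in most of these groups. The part of these shifts in the results below was not tested, and in bulk samples fewer cells of a type and less RNA per cell cannot be told apart. Reads on 4 Y-linked genes numbered 6575 to 9095 in the samples of IL6-iHPCs-clone-1 and 0 in those labelled IL6-iMHs-clone-1, although both are labelled as one clone. They numbered 994 to 1550 in hepatocytes, 13066 to 18444 at day 3, 9185 to 10803 at day 14 and 0 to 2 in all samples of the mouse-1 and mouse-2 lines. Comparisons of day 3, day 14, passaged lines and IL6-iMHs with hepatocytes therefore all cross a difference in these reads, whose part was not tested. Results that average over lines are also given without clone-1, which leaves that difference in place. In liver, the 3 samples of PHX-D3 differed in summed hepatocyte markers, with 25562 FPKM in replicate 2 and 40499 and 62710 in the others.

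The promoters of Plin2, Pdk4 and Acot2, which were higher by 2-fold or more both after 3 days of culture and 6 h after PHX (Plin2 in culture not under median-of-ratios scaling), are shown because PPARA and its partner RXR bind 2 copies of a 6-base motif spaced by 1 base. The windows are those of RefSeq on GRCm38.p6, written 5′ to 3′ on the gene's strand. Those of Pdk4 and Acot2 run from 250 bases before the gene's outermost annotated start through the first 50 of the gene, and that of Plin2 from 92 bases before it through the first 208. Capitals mark AGGNCA, a looser form of the motif AGGTCA, on either strand.
Plin2, chr4:86670010-86670309, minus strand: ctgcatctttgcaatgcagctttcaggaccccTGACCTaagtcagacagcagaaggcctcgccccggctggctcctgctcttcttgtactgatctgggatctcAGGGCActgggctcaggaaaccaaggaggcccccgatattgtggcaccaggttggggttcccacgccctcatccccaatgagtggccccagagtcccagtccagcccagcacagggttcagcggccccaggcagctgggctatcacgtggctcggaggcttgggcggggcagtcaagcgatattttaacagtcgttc
Pdk4, chr6:5496229-5496528, minus strand: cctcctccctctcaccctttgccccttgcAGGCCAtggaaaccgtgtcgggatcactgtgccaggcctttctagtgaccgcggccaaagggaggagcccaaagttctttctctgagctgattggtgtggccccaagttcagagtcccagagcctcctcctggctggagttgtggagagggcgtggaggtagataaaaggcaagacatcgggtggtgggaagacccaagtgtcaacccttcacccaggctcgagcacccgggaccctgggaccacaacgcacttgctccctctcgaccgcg
Acot2, chr12:83987611-83987910, plus strand: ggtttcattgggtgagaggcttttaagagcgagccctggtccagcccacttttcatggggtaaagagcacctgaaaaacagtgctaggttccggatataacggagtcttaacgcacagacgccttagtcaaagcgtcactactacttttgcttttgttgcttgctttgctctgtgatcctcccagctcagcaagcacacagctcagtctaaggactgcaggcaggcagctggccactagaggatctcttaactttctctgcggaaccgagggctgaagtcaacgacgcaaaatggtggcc

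A promoter was found for 28 of the 33 members, with none for Acaa2, Angptl4, Cpt1b, Crat and Decr1. Of their 31 windows, 22 lie at the outermost annotated start and 9 at another place. The Plin2 window held 2 matches to AGGNCA, 1 of them the exact motif AGGTCA, Pdk4 held 1 and Acot2 held 0. Over all members with a window, AGGTCA stood in 7 of 31 promoters (22.6%, both strands), those of Acadm, Acadvl, Acot3, Acot4, Cpt1a and Plin2, against 16.3% of all 32851 promoters. The looser AGGNCA, which includes AGGTCA, stood in 24 of 31 (77.4%) against 57.2% of all. The pair of motifs spaced by 1 base was found in 0 member windows in either form, and in 13 (0.0396%) and 125 (0.381%) of all windows. Acot2, Acot1, Acot4 and Acot3 lie side by side on chromosome 12, between 83987861 and 84060400. At the best offset without gaps, the windows of Acot1 and Acot2 matched at 91 of 293 aligned bases. The other pairs matched at 29.5% to 32.4%. Gaps were not allowed and the Acot4 window starts inside the gene, so these values cannot tell whether the windows are copies. Hadha and Hadhb, the subunits of the trifunctional protein, start beside each other on chromosome 5 and their windows shared 228 bases.

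In freshly isolated hepatocytes, 13 of the 33 members stood at 100 FPKM or more and 4 under 1 FPKM, with a median of 85.4 FPKM against 3.40 over all genes. Levels in FPKM are scaled to transcript length and can be set side by side between genes. The highest was Acaa2, the mitochondrial thiolase that ends each round of beta-oxidation, at 820.0 ± 39.8 FPKM (SD, n = 3). Acaa1b, a peroxisomal thiolase, followed at 689 ± 57.4 FPKM and Etfb, a subunit of the flavoprotein that takes electrons from the acyl-CoA dehydrogenases, at 437 ± 31.0 FPKM. The lowest were Fgf21, a fasting hormone of the liver, at 0.142 ± 0.0447 FPKM and Cpt1b, the muscle form of the carnitine shuttle's first enzyme, at 0.205 ± 0.0218 FPKM. Acaa1a and Acaa1b, like Acot1 and Acot2, are close paralogs, and how the authors' counting shared out reads that match both is not known, so the level of each is uncertain to that extent.

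The comparison of IL6-iHPCs-D3 with hepatocytes sets cells after 3 days in the IL6 medium against freshly isolated ones. No culture of 3 days without IL6 was sequenced, so plating, time in culture and IL6 cannot be told apart here. A gene is called here where it changed by 2-fold or more with an adjusted p under 0.05. By that rule 20 members were lower and 5 higher, where 12.1% of all 12328 genes tested were lower and 53.9% higher. The median log2 change was -1.28 for the members and 1.14 for all genes. All 3 peroxisomal enzymes fell, as did all 4 later steps of mitochondrial beta-oxidation, all 4 auxiliary enzymes, 3 of 4 acyl-CoA dehydrogenases, 2 of 3 electron transfer genes and Bdh1. Hepatocyte markers moved with them, 6 of 8 lower and 1 higher.

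Acaa1b read 750.4, 636 and 681 FPKM in the 3 hepatocyte samples and 2.61, 2.76 and 2.37 FPKM at day 3. The groups lay far apart, with a log2 change of -7.59 (SE 0.10, adjusted p = 2.2e-32, limma). Bdh1, which interconverts the 2 ketone bodies acetoacetate and beta-hydroxybutyrate, read 72.1, 70.2 and 73.8 FPKM in hepatocytes and 0.684, 0.811 and 0.548 FPKM at day 3. Its log2 change was -5.44 (SE 0.09, adjusted p = 2.0e-29), with every day 3 sample under 1 FPKM. Acaa2 went from 808, 788 and 865 FPKM to 39.2, 45.4 and 39.0 FPKM, a log2 change of -4.28 (SE 0.07, adjusted p = 1.0e-29). Ehhadh, the peroxisomal enzyme that carries out hydration and dehydrogenation, went from 94.9 ± 6.95 to 7.91 ± 0.196 FPKM, with a log2 change of -3.42. Acsl1, which activates long-chain fatty acids, went from 209 ± 19.8 to 19.6 ± 0.281 FPKM, with a log2 change of -3.34.

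The members that rose at day 3 were mostly not enzymes of the oxidation spiral. Pdk4, the kinase that switches off pyruvate dehydrogenase, read 0.644, 0.841 and 0.729 FPKM in hepatocytes and 110.9, 113.9 and 109.8 FPKM at day 3. This was the largest rise, 6.02 on the log2 scale (SE 0.10, adjusted p = 1.9e-29). Acot2, a mitochondrial thioesterase that frees fatty acids from coenzyme A, rose from 1.36 ± 0.118 to 39.1 ± 3.32 FPKM, a log2 change of 4.08 (SE 0.08, adjusted p = 8.4e-28). Angptl4, a secreted inhibitor of lipoprotein lipase, rose by 2.02, Cpt1b by 1.75 and Plin2, a coat protein of lipid droplets, by 1.47. Under median-of-ratios scaling, which lowered the median of all genes by 0.75, Angptl4 and Plin2 were no longer past 2-fold, and under quantile normalization Cpt1b was not.

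At day 14, 20 members were lower and 8 higher than in hepatocytes, against 12.9% and 50.0% of all genes. The median log2 change against hepatocytes was -1.49, and 1.00 for all genes. Scaling by the median of ratios changed the split to 21 lower and 4 higher, with Cpt1a, Cpt1b, Acot3 and Crat lost from the higher side. Under quantile normalization Cpt1b and Acot3 turned to slightly negative values of -0.08 and -0.17. Lower were all 4 later steps of mitochondrial beta-oxidation, all 3 electron transfer genes, all 3 peroxisomal enzymes, 3 of 4 acyl-CoA dehydrogenases, 3 of 4 auxiliary enzymes, 3 of 6 in the carnitine shuttle and Bdh1. Acadl and Eci2 were not called, with log2 changes of 0.76 and 0.15, and Cpt1a, Cpt1b and Crat were higher. Acaa1b stood at 9.53 ± 0.575 FPKM (log2 change -6.03), Bdh1 at 2.12 ± 0.370 FPKM (-4.56), Acaa2 at 33.9 ± 2.05 FPKM (-4.56) and Ehhadh at 4.62 ± 0.129 FPKM (-4.09). Etfb, at 48.4 ± 2.69 FPKM, had a log2 change of -3.15.

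Between day 3 and day 14 only a few members moved by 2-fold, 4 higher and 1 lower, where 5.12% of all genes were higher and 5.05% lower. Eci2, an isomerase that prepares unsaturated chains for oxidation, went from 44.2 ± 0.998 to 109 ± 1.80 FPKM. Acot1, a cytosolic thioesterase, went from 19.1 ± 1.97 to 57.9 ± 3.17 FPKM, which lay above the 9.82 ± 0.662 FPKM of hepatocytes at both times. Acot3, a peroxisomal thioesterase, and Acaa1b rose by 1.29 and 1.56 on the log2 scale. Pdk4 went the other way, from 112 ± 2.08 to 13.4 ± 2.40 FPKM, a log2 change of -2.98 (SE 0.10, adjusted p = 1.0e-20).

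**Figure D1:**
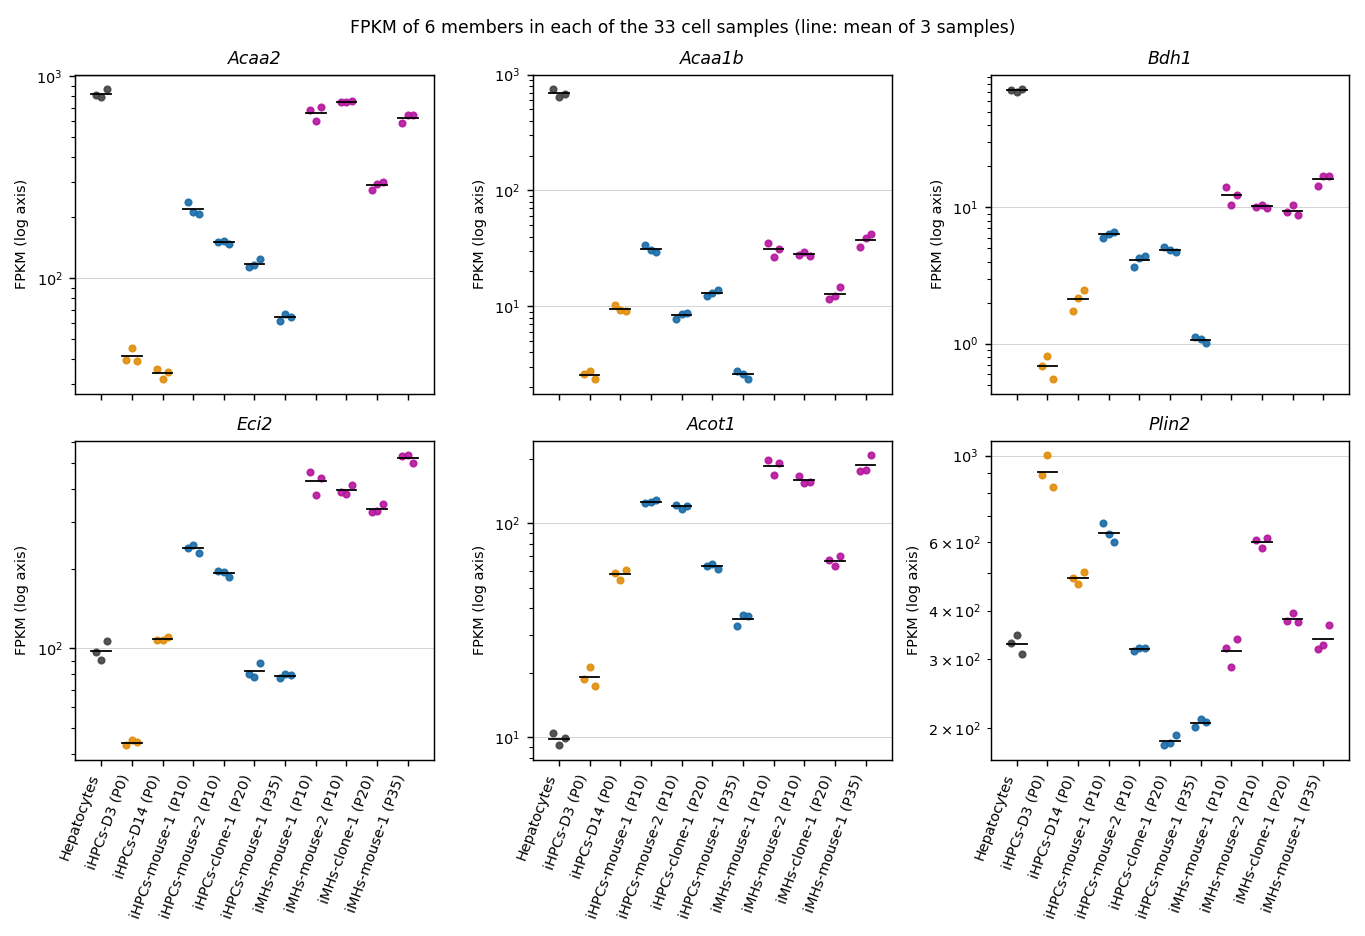
FPKM on a log axis of Acaa2, Acaa1b, Bdh1, Eci2, Acot1 and Plin2 in each of the 33 cell samples, with 1 point per sample and a line at the mean of 3, for hepatocytes (grey), unpassaged IL6-iHPCs (orange), passaged IL6-iHPCs (blue) and IL6-iMHs (purple). Acaa2 stood at 289 to 748 FPKM in IL6-iMHs while Acaa1b stayed at 12.9 to 37.6 FPKM, and Eci2 was highest in the 4 groups of IL6-iMHs, with 335 FPKM or more.

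Passaged IL6-iHPCs, taken as the mean of the 4 lines, held 16 members lower and 7 higher than hepatocytes, against 11.3% and 48.1% of all genes. The median log2 change was -0.93, and 0.93 for all genes. Without clone-1 the counts were again 16 and 7, with Hadh in place of Slc25a20 on the lower side. Median-of-ratios scaling gave 21 lower and 4 higher. Of the members, 15 were lower in all of day 3, day 14 and the passaged lines, namely Cpt2, Slc25a20, Acadvl, Acads, Ehhadh, Acaa1a, Acaa1b, Acaa2, Bdh1, Etfa, Etfb, Eci1, Decr1, Decr2 and Acsl1. Acot2, Pdk4 and Angptl4 were higher in all of them. Of all 12328 genes, 1110 (9.0%) were lower and 39.4% higher in all of them, and the comparisons share the same hepatocyte samples.

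The lines differed in how low the enzymes stood. Acaa2 was at 219 ± 17.1 and 150.5 ± 2.41 FPKM at P10 of mouse-1 and mouse-2, at 118 ± 5.67 for clone-1 and at 64.1 ± 2.82 by P35 of mouse-1. Decr1, which reduces double bonds in mitochondria, was at 43.4 ± 0.858, 36.6 ± 2.38, 10.1 ± 0.473 and 8.85 ± 0.349 FPKM in the same order, against 68.6 ± 5.37 in hepatocytes. Bdh1 was lowest in mouse-1 (P35) too, at 1.07 ± 0.0572 FPKM, where the other lines had 4.10 to 6.34. The median log2 change of the members ran from -0.65 in mouse-1 (P10) to -1.19 in mouse-1 (P35). Called lower in every line were 10 members, Acsl1, Acadvl, Acads, Acaa2, Eci1, Decr2, Etfb, Ehhadh, Acaa1b and Bdh1, and called higher in every line were 5, Crat, Acadl, Acot1, Acot2 and Acot3, against 7.99% and 31.4% of all genes. Under median-of-ratios scaling Acadl and Crat did not pass 2-fold in the mean of the lines.

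In the mean of the passaged lines the largest rises were those of the thioesterases Acot2, Acot1 and Acot3. In mouse-1 (P10) alone Pdk4 rose most, by 4.37 against 4.26 for Acot2. Acot1 stood at 126 ± 2.15 and 120.1 ± 3.00 FPKM at P10 of mouse-1 and mouse-2, at 63.0 ± 1.75 for clone-1 and at 35.8 ± 2.31 by P35 of mouse-1, with a log2 change of the mean of 2.84. Acot2 stood at 44.2, 39.4, 30.1 and 7.71 FPKM in these lines, a log2 change of 3.49, and Acot3, near 0.316 FPKM in hepatocytes, reached 8.66 FPKM in mouse-1 (P10). Acot4 was called higher in mouse-1 (P10) alone, at 19.8 ± 2.28 against 8.41 ± 0.289 FPKM. Fgf21 was not called in the mean of the lines, but it read 9.28, 8.69 and 10.03 FPKM in the 3 samples of clone-1. In the samples of the other passaged lines it ran from 0 to 0.794 FPKM, and 2 of these values rested on 2 reads or fewer. Pdk4 was highest in mouse-1 (P10), at 35.1 ± 5.98 FPKM, and lowest in clone-1, at 1.60 ± 0.284 FPKM.

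**Figure D2:**
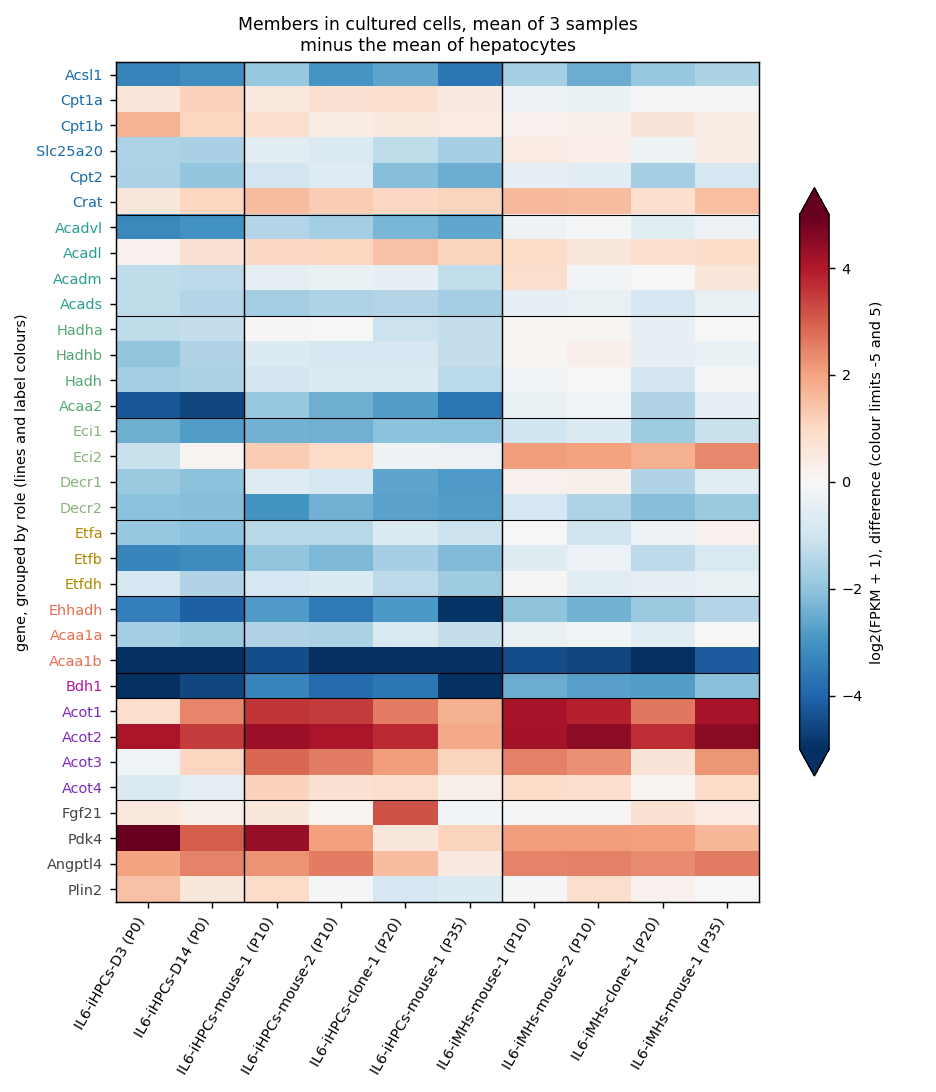
Log2(FPKM + 1) of the 33 members as the mean of 3 samples minus the mean of hepatocytes, with 1 row per gene grouped by role and 1 column per cultured group (unpassaged IL6-iHPCs, passaged IL6-iHPCs, IL6-iMHs). Colours run from blue (lower) to red (higher) and stop at -5 and 5, and Acaa1b and Bdh1 stay blue in every column while Acot1 and Acot2 stay red.

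The comparison of IL6-iMHs with the IL6-iHPCs they came from shows which members moved on maturation. Averaged over the 4 lines, 13 members were higher and 0 lower (limma; 31 members had an unadjusted p under 0.05, and voom on recovered reads called 1 lower, Fgf21). Of all genes, 6.68% were higher and 21.4% lower, and the median log2 change was 0.85 for the members and -0.40 for all genes. All 4 auxiliary enzymes, all 3 peroxisomal enzymes, Bdh1, 2 of 4 acyl-CoA dehydrogenases, 1 of 3 electron transfer genes, Slc25a20 and Acaa2 rose. The mean rise of Acaa1b, 1.26, came from mouse-2 (P10) and mouse-1 (P35), with 1.63 and 3.42, against -0.02 in mouse-1 (P10) and -0.01 in clone-1. None of the 4 thioesterases and none of the 4 genes in the group of regulators and lipid droplet coat was called in either direction, although Acot1, Acot2 and Angptl4 were higher under median-of-ratios scaling. Hepatocyte markers moved with them, 6 of 8 higher and 1 lower. Without clone-1, 16 members were higher, Acadm, Etfa and Acot1 in addition, and median-of-ratios scaling, which raised the median of all genes by 0.27, gave 22.

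Acaa2 rose most, by 2.11 on the log2 scale (SE 0.03, adjusted p = 2.6e-29), to 659.7 ± 53.4 and 748 ± 8.44 FPKM in the P10 lines of mouse-1 and mouse-2, 625 ± 31.1 at P35 of mouse-1 and 289 ± 13.5 for clone-1. Acadvl, the dehydrogenase for very long chains, rose by 1.70 (SE 0.04) and stood between 178 and 251 FPKM in the 4 groups of IL6-iMHs. These were the only members called higher in each of the 4 lines, where 1.95% of all genes were. Eci2 rose by 1.65 and Ehhadh by 1.60. Bdh1 rose by 1.46 and Slc25a20, the carrier that exchanges acylcarnitine for carnitine, by 1.26. Acaa1a, the other peroxisomal thiolase, was at the edge of the rule, with a log2 change of 1.01 that fell under 2-fold in 6 of the fits that left out 1 sample.

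Of the 16 members lower in passaged IL6-iHPCs, 12 were higher in IL6-iMHs than in IL6-iHPCs, against 42.3% of the 1392 genes lower in passaged IL6-iHPCs, in comparisons that share the IL6-iHPC samples. In the mean of the lines against hepatocytes, 10 of the 16 were no longer called, 6 were still lower and 0 were higher. Of the 1392 genes, 36.4% were no longer called, 62.4% were still lower and 1.15% were higher. Over all members, IL6-iMHs had 6 lower and 7 higher than hepatocytes, against 7.79% and 24.8% of all genes, and the median log2 difference was -0.20, with 0.46 for all genes. Without clone-1 it was 5 lower and 7 higher, with Eci1 lost. Median-of-ratios scaling gave 10 lower and 6 higher, with Cpt2, Acads, Acaa2 and Etfb added to the lower side and Crat lost from the higher. The lines differed in the main fit. In clone-1, 10 members were lower, against 1276 of all 12328 genes, and 5, 5 and 6 in mouse-1 (P10), mouse-2 (P10) and mouse-1 (P35), against 894, 941 and 989. Cpt2, Acaa2, Decr1 and Etfb, not called in the mean, were lower in clone-1, by -1.67, -1.50, -1.50 and -1.32.

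The members that stayed low in IL6-iMHs were the peroxisomal Acaa1b and Ehhadh, the ketone body enzyme Bdh1, Acsl1, Eci1, the mitochondrial isomerase, and Decr2, the peroxisomal counterpart of Decr1. Acaa1b read between 11.7 and 41.7 FPKM in the 12 samples of IL6-iMHs against 636 to 750.4 in hepatocytes, with a log2 difference of -4.70 (SE 0.08, adjusted p = 6.8e-30). Its paralog Acaa1a stood at 96.2 to 146 FPKM in the 4 groups against 142 ± 13.5, and was not called. Bdh1 stood at 9.44 to 16.1 FPKM against 72.0 ± 1.76, a log2 difference of -2.52. Ehhadh stood at 17.6 to 33.6 FPKM against 94.9 ± 6.95, a log2 difference of -1.93. These 3 and Acsl1 were called lower in each of the 4 lines, as were 5.22% of all genes.

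The members above hepatocytes in IL6-iMHs were Acot2, Acot1, Angptl4, Eci2, Pdk4, Acot3 and Crat, the carnitine acetyltransferase. Acot2 ranged from 29.5 ± 0.987 to 53.0 ± 8.04 FPKM over the 4 groups against 1.36 ± 0.118, a log2 difference of 4.20 (SE 0.06). Acot1 ranged from 66.8 ± 3.56 to 188 ± 17.9 FPKM, a log2 difference of 3.69. Eci2 ranged from 335 ± 12.2 to 521 ± 18.8 FPKM against 97.9 ± 8.28, a log2 difference of 2.07. Acot1, Acot2, Eci2, Pdk4 and Angptl4 were called higher in each of the 4 lines, as were 12.3% of all genes. Pdk4, at 4.48 to 6.46 FPKM, lay far under its 112 FPKM of day 3.

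The size of the maturation response was then compared between lines. In mouse-1 at P10, 9 members rose and 2 fell, against 9.59% and 15.4% of all genes. For mouse-2, 13 rose and 1 fell, against 11.2% and 28.6%. For clone-1, 7 rose and 2 fell, against 5.86% and 17.7%. At P35 of mouse-1, 22 rose and 0 fell (limma; 32 had an unadjusted p under 0.05 in either direction), against 10.2% and 35.1%. Tested as a difference between the responses of mouse-1 at P35 and at P10, 18 members responded more at P35 and 1, Decr2, less, against 9.65% and 24.1% of all genes. The median difference over all genes was -0.36, and 29 of the 33 members lay above 0. Under either other scaling 21 responded more and 0 less, and Decr2 was not past 2-fold. Hepatocyte markers moved with this, with sums of 1740 to 1780 FPKM in the IL6-iHPCs of P35 against 7626 to 8439 at P10, and of 51973 to 62132 and 61755 to 66719 in the IL6-iMHs made from them. S100a8, on the list of leukocyte markers, stood at a mean of 84.0 FPKM in the IL6-iHPCs of P35 and under 1 FPKM at P10, and the part of both in the result was not tested. Acaa1b differed most, by 3.45 (SE 0.14, adjusted p = 2.3e-19), from no change at P10 (31.3 ± 2.53 to 31.0 ± 4.34 FPKM) to a rise at P35 (2.58 ± 0.219 to 37.6 ± 4.74 FPKM). Ehhadh also started lower at P35, and went from 2.21 ± 0.137 to 33.6 ± 1.68 FPKM at P35 and from 12.7 ± 1.92 to 22.7 ± 1.55 at P10.

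Clone-1 differed from the mean of the P10 lines in 9 members, with 3 responding more and 6 less, against 13.7% and 19.1% of all genes. Quantile normalization turned this into 6 more and 2 less, and median-of-ratios scaling into 3 and 2. Pdk4 rose in clone-1, from 1.60 ± 0.284 to 6.21 ± 0.597 FPKM, and fell in mouse-1 (P10), from 35.1 ± 5.98 to 6.38 ± 0.0902 FPKM, with a difference from the mean of the P10 lines of 2.59 (SE 0.12). In mouse-2 (P10), the other line in that mean, it was not called, at 6.19 ± 0.306 and then 6.46 ± 0.264 FPKM. Fgf21 fell in clone-1 from 9.33 ± 0.675 to 0.936 ± 0.172 FPKM, and the difference was -2.03. The Y-linked reads given above bear on this comparison, and what the labelled clone contributes to it was not tested.

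**Figure D3:**
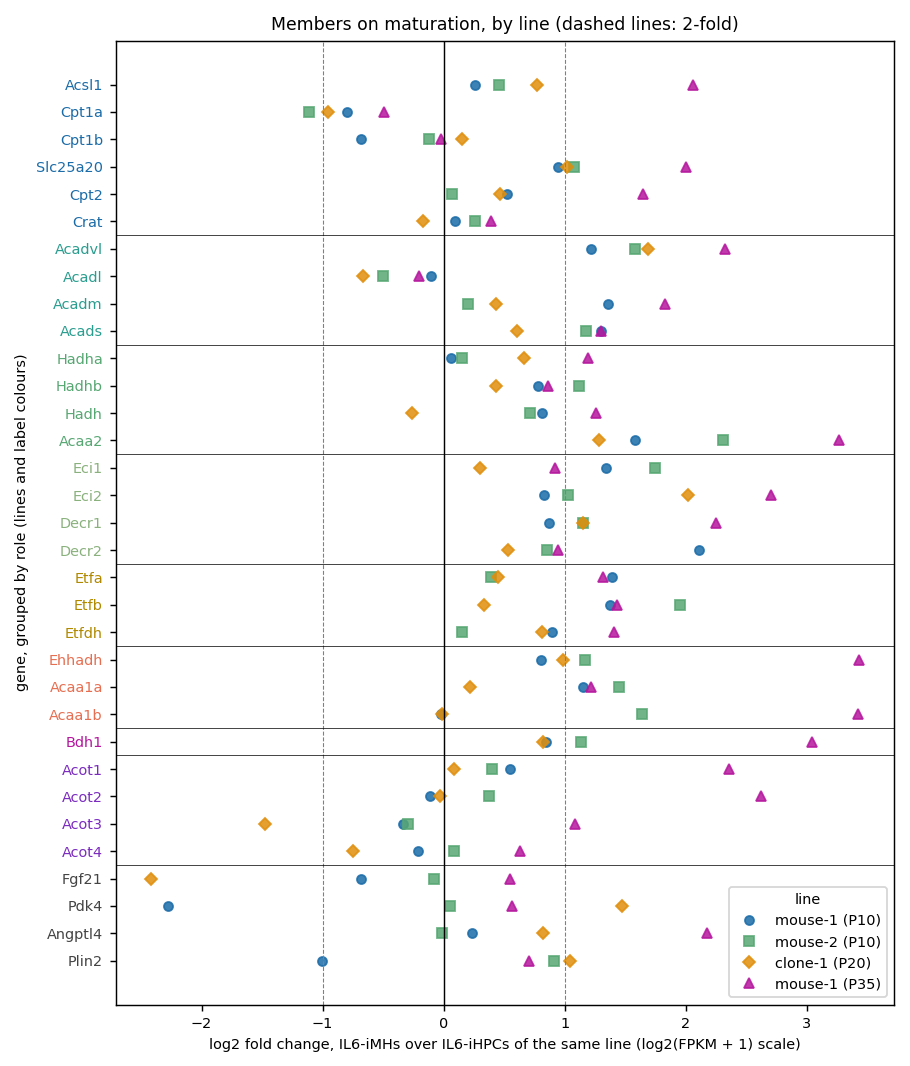
Log2 fold change of IL6-iMHs over IL6-iHPCs of the same line for each of the 33 members, on the log2(FPKM + 1) scale, with 1 marker per line and dashed lines at 2-fold. The triangles of mouse-1 (P35) lie farthest right for most members, with 22 called higher, while Pdk4 spreads from -2.28 in mouse-1 (P10) to 1.48 in clone-1.

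Across the 33 cell samples, Acadvl and Acaa2 had the most alike pattern of log2(FPKM + 1), with Pearson's r of 0.99. Slc25a20 and Acadvl followed at 0.97 and Acaa1b and Bdh1 stood at 0.95. Cpt1a, the enzyme that controls entry into mitochondria, ran opposite to them, with r of -0.86 against Acadvl. It stood at 41.0 ± 4.41 FPKM in hepatocytes, 91.3 ± 1.60 at day 14, 56.0 to 74.4 in passaged cells and up to 39.6 in IL6-iMHs. On this scale the median of all genes also rose against hepatocytes, by 1.00 at day 14. Under median-of-ratios scaling Cpt1a was not past 2-fold at day 14. The part of that shift in the r values was not tested. These r values describe 11 groups of 3 samples with shared media and lines, so the samples are not independent.

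Among 62 other genes of fatty acid metabolism, listed from general knowledge with earlier results of these data known, 60 passed the filter. In IL6-iHPCs-D3, 36 were lower and 12 higher, against 12.1% and 53.9% of all genes. In IL6-iHPCs-D14 it was 36 and 10, against 12.9% and 50.0%, and in passaged IL6-iHPCs 32 and 9, against 11.3% and 48.1%. On maturation 26 rose and 4 fell, against 6.68% and 21.4%. Against hepatocytes IL6-iMHs had 17 lower and 15 higher, where 7.79% and 24.8% of all genes were. Fabp1, the fatty acid binding protein of the liver, read 0, 0.0899 and 0 FPKM at day 3, with 0, 3 and 0 reads, against 4029 ± 244 FPKM in hepatocytes. Slc27a5, which joins bile acids and long chains to coenzyme A, went from 716 ± 25.0 to 1.85 ± 0.192 FPKM at day 3 and stood at 56.6 to 175 FPKM in IL6-iMHs. Slc27a2, a transporter and synthetase for long and very long chains, went from 458 ± 9.29 to between 0.00494 and 9.19 FPKM in passaged lines, and Hacl1, which shortens branched chains, from 200.4 ± 10.6 to between 13.3 and 20.4 FPKM in IL6-iMHs. Mgll, the lipase for monoacylglycerols, stood at 48.4 ± 1.86 FPKM in hepatocytes and at 0.00320 to 11.8 FPKM in IL6-iMHs.

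On the higher side, Ppard, a relative of PPARA, went from 1.51 ± 0.561 to 17.2 ± 2.85 FPKM at day 3, with a log2 change of 2.87. Acsl4, a synthetase that prefers arachidonic acid, went from 3.43 ± 0.594 to 66.1 ± 4.53 FPKM at day 14. Cd36, a fatty acid uptake protein, went from 0.507 ± 0.0632 FPKM to 5.49 to 189 in passaged lines and 131 to 221 in IL6-iMHs. Oxct1, which lets tissues other than the liver burn ketone bodies, went from 0.261 ± 0.0978 FPKM to 3.23 to 39.9 in passaged lines and 15.1 to 38.5 in IL6-iMHs, a log2 difference of 4.36. On maturation Cyp4a10, an omega-hydroxylase under PPARA, rose by 4.66 and Slc16a1, a carrier of ketone bodies and lactate, fell by 1.31.

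At day 7 the medium was given with and without IL6, and the available values cover a shortened list of 480 symbols. Of the 33 members, 5 are on it, so this contrast says nothing about the others. How the list was chosen may favour some genes, which was not tested. Acot1 read 9.63 to 11.2 FPKM in primary hepatocytes, 21.2 to 22.1 without IL6 and 31.2 to 38.1 with it. Angptl4 read 72.5 to 72.9, 181 to 195 and 316 to 381 FPKM in the same order. Acot2 read 1.07 to 1.29 FPKM in primary hepatocytes, 18.9 to 19.3 without IL6 and 17.3 to 18.5 with it. Fgf21 read 1.57 to 1.99 FPKM in primary hepatocytes, 0.0245 to 0.278 without IL6 and 0.453 to 0.770 with it. Its cultures thus lay below the primary cells of this set. In the first set the order was the reverse. Fgf21 read 0.0926 to 0.180 FPKM in hepatocytes there, 0.398 to 0.795 at day 3 and 0.293 to 0.505 at day 14. The direction of change thus differed between the sets, and the reason was not tested. Crat read 12.6 to 13.9 FPKM in primary hepatocytes and 15.9 to 19.3 in the cultures, whose ranges overlapped. The 3 groups did not overlap in the other 4 members, and neither did they in 38.3% of the 480 symbols of this table. With 3 samples against 3, the smallest 2-sided p of an exact permutation test is 0.1, so no test was run on them.

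At 6 h after PHX the 4 thioesterases, Pdk4, Angptl4, Plin2 and Ehhadh were higher and Bdh1 lower, and no enzyme of mitochondrial beta-oxidation was called. In normal liver 13 members stood at 100 FPKM or more, led by Acaa2 at 658 ± 36.8 FPKM. At 6 h, 8 members were higher and 1 lower than in normal liver, against 4.78% and 11.5% of the 11114 genes tested, and the median log2 change was 0.11, with -0.28 for all genes. All 4 thioesterases, 3 of 4 in the group of regulators and lipid droplet coat, and 1 of 3 peroxisomal enzymes were higher. None of the 6 members of the carnitine shuttle, the 4 acyl-CoA dehydrogenases, the 4 later steps, the 4 auxiliary enzymes or the 3 electron transfer genes was called. Under median-of-ratios scaling or quantile normalization, which raised the median of all genes by 0.23 and 0.25, 9 were higher, Eci2 in addition, and 0 lower.

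Plin2 read 558, 319 and 310 FPKM in normal liver and 2892, 2781 and 2385 FPKM at 6 h, a log2 change of 2.81 (SE 0.64, adjusted p = 0.0020). Pdk4 read 1.11, 1.33 and 0.800 FPKM in normal liver and 309, 110.3 and 198 at 6 h, the largest change of the members at 6.52 (SE 1.18, adjusted p = 0.00034). Acot2 read 1.18, 1.12 and 0.581 FPKM and then 86.8, 56.2 and 35.5, a log2 change of 4.87 (SE 0.56, adjusted p = 9.5e-06). In all 3 genes no sample of 6 h came near the normal range. Acot3 rose by 3.44, from 0.554 ± 0.526 to 18.6 ± 12.2 FPKM, and Acot1 by 2.61, from 10.2 ± 4.18 to 63.4 ± 6.61 FPKM. Acot4 rose from 5.79 ± 1.85 to 16.4 ± 1.48 FPKM and Angptl4 from 40.7 ± 4.06 to 116 ± 8.29 FPKM. Ehhadh read 76.4, 102.9 and 67.8 FPKM in normal liver and 148, 162 and 185 at 6 h, a log2 change of 1.01 that fell under 2-fold without normal liver replicate 1 or 3 or PHX-6h replicate 3.

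Bdh1 was the single member lower at 6 h, and its samples were tight, at 90.2, 97.4 and 85.9 FPKM in normal liver and 41.1, 39.4 and 40.3 at 6 h. The log2 change was -1.16 (SE 0.13, adjusted p = 6.4e-06), and under both other scalings it was not past 2-fold. At 24 h it was back at 95.8, 78.3 and 94.4 FPKM. Of the 4 adipocyte markers, Adipoq, Plin1 and Lep were at or under 0.0582 FPKM in all samples of normal liver and of 6 h. The fourth, Cidec, a droplet protein that steatotic hepatocytes make too, read 1.62 to 1.99 FPKM in normal liver and 75.7 to 102.6 at 6 h. Of the hepatocyte markers, 0 of 8 were called, and their sum ran from 35364 to 42916 FPKM against 43870 to 49834 in normal liver. Of 6 Kupffer cell markers 5 were lower, with sums of 36.7 to 81.5 FPKM against 110.3 to 192, and of 6 endothelial markers 2 were lower and 1 higher, with sums of 66.2 to 77.4 against 104 to 112. Of 6 other leukocyte markers 2 were higher, with sums of 39.9 to 41.7 FPKM against 3.28 to 9.45. The part of these shifts in the 6 h results was not tested.

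**Figure D4:**
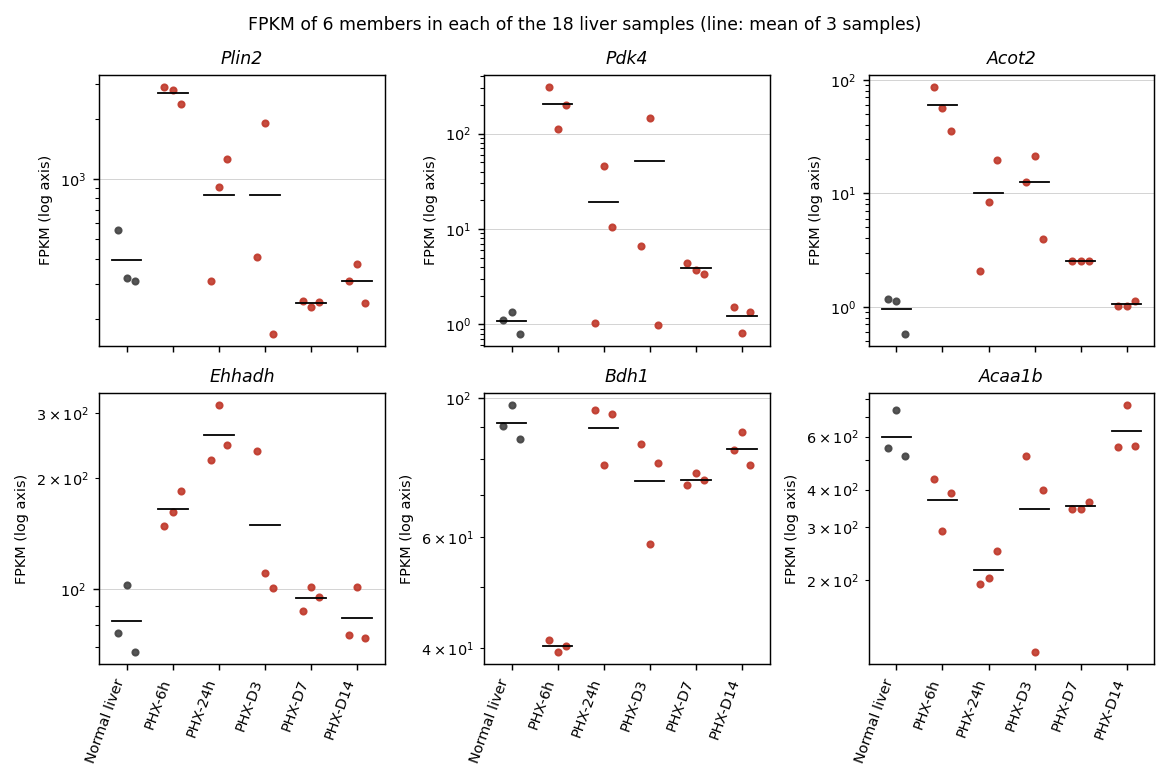
FPKM on a log axis of Plin2, Pdk4, Acot2, Ehhadh, Bdh1 and Acaa1b in each of the 18 liver samples, with 1 point per sample and a line at the mean of 3, for normal liver (grey) and the 5 times after PHX (red). Plin2, Pdk4 and Acot2 peak at 6 h, Ehhadh at 24 h, and the PHX-D3 samples spread widely, from 169 to 1914 FPKM for Plin2.

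At 24 h, 8 members were higher and 1 lower, against 3.74% and 4.16% of all genes, and the median log2 change was 0.40, with -0.02 for all genes. The count of higher members ran from 4 to 10 when single samples were left out. Without PHX-24h replicate 3 it was 4, with Acot1, Acot2, Acot3 and Angptl4 lost, and without replicate 1 it was 10, with Eci2 and Pdk4 gained. It was 5 without PHX-24h replicate 2 or without normal liver replicate 3. Replicate 1 was nearer to normal liver for several of these genes, with Plin2 at 310.0 FPKM against 914 and 1260, Pdk4 at 1.03 against 45.8 and 10.6 and Cidec at 5.05 against 49.3 and 100.4. Hepatocyte markers summed to 23753 to 29523 FPKM at this time, and 2 of 8 were lower.

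Ehhadh reached its highest level at 24 h, at 224, 314 and 246 FPKM, all above the normal samples, with a log2 change of 1.66 (SE 0.26, adjusted p = 0.00036). Decr1 read 69.9, 85.1 and 59.99 FPKM in normal liver and 144, 172 and 151 at 24 h, a log2 change of 1.12 (SE 0.16, adjusted p = 0.00022). Crat went from 9.20 ± 2.01 to 22.9 ± 7.59 FPKM, a log2 change of 1.19. Acot2 read 2.05, 8.44 and 19.7 FPKM, a log2 change of 2.12, and Acot1, Acot3 and Acot4 rose by 1.67, 1.52 and 1.36. Acaa1b went the other way, from 549.9, 734 and 516 FPKM to 194, 203 and 250.2, with a log2 change of -1.46 (SE 0.38, adjusted p = 0.0091). Its paralog Acaa1a read 132 ± 23.2 FPKM against 154 ± 13.8 and was not called.

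From 6 h to 24 h, 1 member rose and 4 fell, against 5.19% and 1.53% of all genes. Bdh1 rose by 1.13 (SE 0.13, adjusted p = 3.6e-05), and Pdk4, Acot2, Acot3 and Plin2 fell by 4.20, 2.75, 1.92 and 1.91 on the log2 scale.

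At 3 days, 5 members were higher and 0 lower (limma; 14 had an unadjusted p under 0.05, and voom on recovered reads gave 5 and 0), against 3.33% and 2.49% of all genes. They were Acot2, Acot3, Acot4, Crat and Cpt1a, and the median log2 change was 0.21, with 0.01 for all genes. Acot4 had the tightest rise, from 5.54, 7.76 and 4.09 FPKM to 26.0, 17.1 and 23.9, with a log2 change of 1.80 (SE 0.21, adjusted p = 8.0e-05). Cpt1a went from 73.4, 61.4 and 49.7 FPKM to 127, 178 and 118, a log2 change of 1.18. Crat went from 9.20 ± 2.01 to 27.8 ± 7.97 FPKM and Acot3 from 0.554 ± 0.526 to 8.29 ± 3.09.

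Replicate 2 of this time was unlike the other samples for many members. It read 1914 FPKM of Plin2 against 405 and 169, 146 of Pdk4 against 6.67 and 0.990, and 69.5 of Fgf21 against 1.20 and 0.264. Cidec read 191 FPKM against 2.12 and 1.29. It was low in Acaa1b, at 115 FPKM against 517 and 400.3, in Acaa2, at 345 against 681 and 619, and in Acsl1, at 72.6 against 319 and 289. The median coefficient of variation of the members was 27.5% at 3 days and between 4.78% and 15.1% in the other liver groups. Without replicate 2, 5 members were higher and 0 lower, with Cpt1a lost at a log2 change of 1.00 and Acot1 gained at 1.74. Fgf21, at 23.7 ± 39.7 FPKM for the group, was called at no time after PHX.

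From 24 h to 3 days 0 members rose and Decr1 fell by 1.09 (SE 0.16, adjusted p = 0.00055, limma; 11 members had an unadjusted p under 0.05), against 2.07% and 1.65% of all genes. From 3 to 7 days 0 rose and 4 fell (limma; 14 had an unadjusted p under 0.05), against 7.15% and 1.31%. Those that fell were Acot3, Acot2, Crat and Acot4.

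At 7 days 0 members were called in either direction (limma; 6 had an unadjusted p under 0.05 and 4 an adjusted one, and voom on recovered reads called Cpt1b lower), against 7.81% of all genes higher and 1.03% lower. The samples were close to each other at this time. Acot2 read 2.54, 2.53 and 2.53 FPKM against 0.581 to 1.18 in normal liver, and Pdk4 4.44, 3.71 and 3.40 against 0.800 to 1.33, with no overlap but no call. Samples of 7 days and of normal liver did not overlap for 17 of the 33 members and for 55.8% of all genes. Kupffer cell markers summed to 697 to 1016 FPKM against 110.3 to 192 in normal liver, with 6 of 6 higher. At 14 days 0 members were called (limma; 3 had an unadjusted p under 0.05 and 0 an adjusted one, and voom on recovered reads called 0), against 0.981% of all genes higher and 2.00% lower. From 7 to 14 days 0 members were called (limma; 3 had an unadjusted p under 0.05), against 0.441% higher and 7.35% lower.

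**Figure D5:**
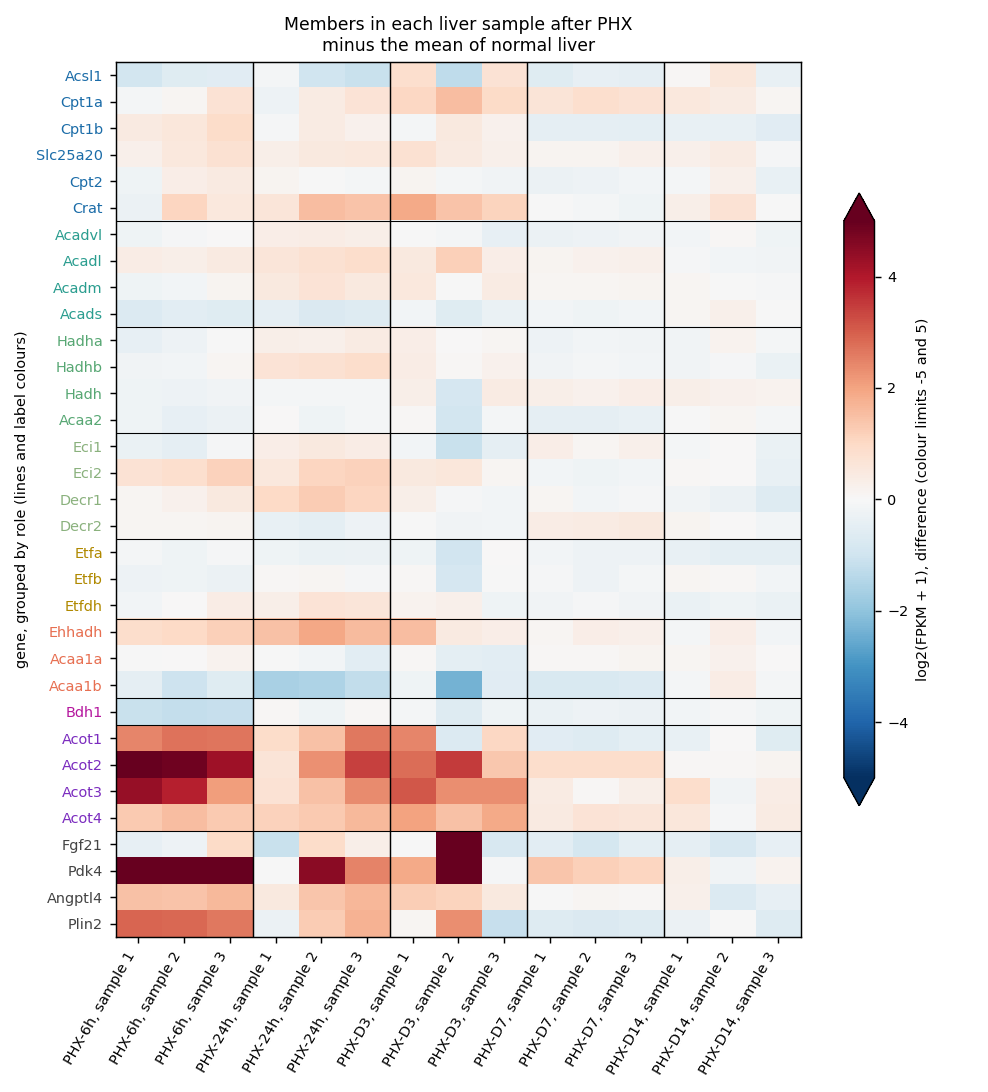
Log2(FPKM + 1) of the 33 members in each of the 15 liver samples after PHX minus the mean of normal liver, with 1 row per gene grouped by role and 1 column per sample. Colours run from blue (lower) to red (higher) and stop at -5 and 5, the thioesterases, Pdk4, Angptl4 and Plin2 are red at 6 h, and PHX-D3 sample 2 differs from its neighbours.

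Over the 18 liver samples Acot2 was most like Pdk4 (Pearson's r of 0.92 on log2(FPKM + 1)) and Acot3 (0.92), and Pdk4 was like Plin2 (0.91). Bdh1 and Pdk4 ran opposite, at -0.86. Samples of a time share the operation and its date after surgery, so these values are descriptions.

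Of the 60 other genes of fatty acid metabolism tested, 8 were higher and 3 lower at 6 h, against 4.78% and 11.5% of all genes. At 24 h 8 were higher and 5 lower, against 3.74% and 4.16%. At 3 days it was 5 and 2, against 3.33% and 2.49%. At 7 days it was 3 and 1, against 7.81% and 1.03%, and at 14 days 0 and 1, against 0.981% and 2.00%. Slc22a5, the carnitine importer, went from 6.70 ± 1.87 FPKM to 65.1 ± 18.9 at 6 h and 39.2 ± 19.1 at 24 h. Cyp4a14, an omega-hydroxylase under PPARA, went from 48.4 ± 41.3 to 659 ± 44.6 FPKM at 24 h, a log2 change of 4.05 (SE 0.49). Acot5, a peroxisomal thioesterase, had 0 reads in the 3 normal livers and 56 to 12984 at 6 h, at least 1389-fold higher against a floor of 3 reads per library, after scaling to library size, and at least 16.6-fold in its lowest sample. Acsm5, a synthetase for medium chains, went from 47.8 ± 0.578 to 13.5 ± 1.15 FPKM at 6 h and Abcd2, a peroxisomal importer, from 3.23 ± 1.39 to 0.534 ± 0.144. At 24 h Bdh2 and Slc27a5 fell by 1.73 and 1.46. At 3 days Cd36 rose by 1.44, Fabp1 fell by 1.56 and Pecr, a peroxisomal reductase, by 1.29. At 7 days Cd36 and Oxct1 rose by 1.48 and 1.17 and Fabp1 fell by 1.33, and at 14 days Txnip, a regulator of glucose uptake, fell by 1.60.

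Set side by side, Acot2, Pdk4 and Angptl4 were called higher both at 6 h after PHX and in IL6-iHPCs-D3, by 4.87 and 4.08, 6.52 and 6.02, and 1.49 and 2.02 on the log2 scale, with Plin2 at 2.81 and 1.47. Bdh1 was lower in both, by -1.16 and -5.44. Of all genes, 4.78% were higher and 11.5% lower at 6 h, and 53.9% and 12.1% at day 3. The share called in both was not counted. Under median-of-ratios scaling, Angptl4 and Plin2 at day 3 and Bdh1 at 6 h were not past 2-fold. Acaa2 and Acadvl, with log2 changes of -4.28 and -3.23 at day 3 of culture, stood at 533 and 219 FPKM at 6 h after PHX against 658 and 231 in normal liver and were not called. Ehhadh fell by 3.42 in culture and rose by 1.01 in liver. The tables were fitted separately, and the difference between them was not tested.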

How the data were processed

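RNA was sequenced by the authors from 33 cell samples, 18 liver samples and 9 day 7 samples. The deposited values are FPKM per gene (fragments scaled to transcript length and to the mapped fragments of the library). The submitters' processing notes name TopHat 1.4.1, Cufflinks 1.3.0 and mm10, and the study's methods do not give the unit or the aligner. Samples were grouped by their labels, and every measurement column matched a sample. Rows that share a symbol (2 symbols for cells, 2 for liver) were averaged, and 1 incomplete row at day 7 was left out. Symbols that stand as dates (27 for cells, 25 for liver, 3 at day 7) were kept as written, and no member is among them. Low FPKM values were whole multiples of 1 read, which gave each library's depth up to a common factor.

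The test was limma 3.58.1 (R 4.3.3) on log2(FPKM + 1) for genes that reached 1 FPKM in at least 3 samples, with trended prior variance and 1 fit per table that held every group. The pseudocount of 1 understates changes of low genes. The Benjamini-Hochberg adjustment ran over every gene in the fit, and calls needed an adjusted p under 0.05 with a change of 2-fold or more. The fit was tested on simulated data. No test was run on the day 7 table, which holds 480 symbols. Alternatives were a pseudocount of 0.1, no filter and a filter at 5 FPKM, quantile normalization, median-of-ratios scaling, voom on recovered reads, no fold threshold and a 4-fold one, a replicate block, leaving out each sample, and leaving out clone-1. The 33 members, the gene lists and the comparisons were chosen with earlier results of these data known. Full values were given for the 6 members that changed most in each comparison and for members called in opposite directions, and for other genes of the pathway for the 2 that rose and the 2 that fell most. Figures were drawn with matplotlib 3.10.9.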

Additional observations from a re-analysis of the deposited data

Results flagged for a closer look

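The maturation response of mouse-1 differed between passages by a test of the difference itself (limma, adjusted p under 0.05 and at least 2-fold). At P35, 18 members responded more than at P10 and 1 less, with the largest differences for Acaa1b (3.45), Pdk4 (2.84) and Acot2 (2.73) on the log2 scale. The IL6-iHPCs of P35 held less Acaa1b (2.58 against 31.3 FPKM), Pdk4 (2.71 against 35.1 FPKM) and Acot2 (7.71 against 44.2 FPKM) than those of P10, and passage and culture batch cannot be told apart here.

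The response of clone-1 differed from that of the P10 lines in the same kind of test, with 3 members responding more and 6 less. The largest differences were those of Pdk4 (2.59), Fgf21 (-2.03) and Etfb (-1.33). The last of these was not past 2-fold under quantile normalization. The Y-linked reads, present in IL6-iHPCs-clone-1 and 0 in the samples labelled IL6-iMHs-clone-1, move with this comparison, and their part in it was not tested.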

How the results depend on the processing

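Of 85 member values named for a comparison, 45 stayed past the threshold under every alternative and 0 changed sign, while Cpt1b and Acot3 at D14, not among them, turned negative under quantile normalization. The causes of the changes below were not tested, apart from thresholds, which change counts by construction. The shares of all genes given above belong to the main fit with its 2-fold threshold. Counts under an alternative, here and above, have no such share beside them and cannot be set against those.

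Under median-of-ratios scaling the members higher were 3 in D3, 4 in D14, 4 in passaged IL6-iHPCs and 22 on maturation, and those lower were 10 in IL6-iMHs against hepatocytes, 0 at PHX-6h, 0 for mouse-1 (P35) against (P10) and 2 for clone-1. Under quantile normalization 0 were lower at PHX-6h and 0 for mouse-1 (P35), and clone-1 had 6 higher and 2 lower. Voom gave 1 lower on maturation and 1 at PHX-D7, and a pseudocount of 0.1 gave 1 lower at PHX-D7 and 1 at PHX-D14.

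Without a fold threshold the members higher were 10 in D3, 12 in passaged IL6-iHPCs, 26 on maturation, 14 in IL6-iMHs against hepatocytes, 14 at PHX-24h, 9 at PHX-D3, 3 at PHX-D7 and 9 for clone-1. Those lower were 5 on maturation, 17 in IL6-iMHs, 2 at PHX-6h, 3 at PHX-24h, 2 at PHX-D3, 1 at PHX-D7, 2 for mouse-1 (P35) and 17 for clone-1. With a 4-fold threshold 3 were higher and 9 lower in D3, 4 and 11 in D14, 4 and 9 in passaged IL6-iHPCs, and 4 and 2 in IL6-iMHs against hepatocytes. On maturation 1 was higher, at PHX-6h 5 higher and 0 lower, at PHX-24h 1 and 0, and at PHX-D3 2 higher. The line differences kept 5 higher and 0 lower for mouse-1 (P35), and 1 and 1 for clone-1.

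Leaving out single samples gave 7 to 9 higher at PHX-6h, 4 to 10 at PHX-24h, 5 to 7 higher and 0 to 1 lower at PHX-D3 (Acaa1b, without PHX-D3 replicate 1 or 3), 12 to 13 higher on maturation and 5 to 7 lower for clone-1. The other counts were the same in each of these fits.

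Samples with the same replicate number did not deviate together, with a mean correlation of -0.015 in cells and -0.030 in liver, and 4 of 33 and 5 of 18 samples were closest to their own number. With the replicate number as a block, the members higher and lower were 5 and 20 in D3, 8 and 20 in D14, 7 and 16 in passaged IL6-iHPCs, 13 and 0 on maturation, 7 and 6 in IL6-iMHs against hepatocytes, 8 and 1 at PHX-6h and PHX-24h, 5 and 0 at PHX-D3, 0 and 0 later, 18 and 1 for mouse-1 (P35) and 3 and 6 for clone-1, the counts found without it.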
